A study of Mus musculus with 24 samples.

Results

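The Myc and Pvt1 locus was taken as chromosome 15 from 61.7 to 62.3 Mb on GRCm39, with Myc at about 61.86 Mb and Pvt1 from about 61.91 to 62.12 Mb. Its members are all regions of the deposited H3K4me3 lists that overlap this stretch of 600 kb, taken by position whatever their score. The stretch itself was chosen with earlier results of these data known. There were 50 of them among 63425 regions in all: 19 listed as unique to the KDM1A knockdown (KD regions), 31 listed as common to both conditions, and 0 listed as unique to the wild type (WT regions).

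Myc is a transcription factor of the basic helix-loop-helix leucine zipper family that binds DNA together with Max and drives growth and division. Pvt1 is a long noncoding RNA gene that follows Myc on the same strand. Both lie in a stretch known for translocation breakpoints and retroviral insertions in B- and T-cell tumours, and sequences in and beyond Pvt1 are known to hold enhancers of Myc. H3K4me3 is the histone mark of active promoters. KDM1A (LSD1) takes methyl groups off mono- and dimethylated H3K4, so the trimethylated form is not its direct substrate.

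The cells were leukemic splenocytes of C57BL/6 mice with the Eµ-TCL1A transgene, which the immunoglobulin heavy-chain enhancer drives in B cells and which causes a disease like chronic lymphocytic leukemia. One condition was untreated (WT) and the other carried the KDM1A knockdown (KD), and both carried the transgene. Each had 3 biological replicates with 2 technical replicates, giving 6 immunoprecipitated and 6 input libraries per condition and 24 libraries in all. The sources used here do not give age, any sorting of the splenocytes, or how the knockdown was made. Neither the cell type nor the knockdown could be checked against marker or Kdm1a levels, because the lists hold no expression values.

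The lists compare WT with KD as a whole, with 1 score per region and 0 columns of values per library. No difference below could be set against the spread between replicates, so no p-value is given and read depth is unknown. Each interval is an exact 95% Clopper-Pearson interval that covers counting error only and treats regions as independent, which neighbouring pieces of 1 enriched stretch are not. Beside a count of 0, the limit given is instead 3 counts of the total. The score is the authors'. One-sided regions all scored over 3 and common regions all under 3. The names of the lists carry this value, so the split is no finding, and KD scores little over 3 lie close to it. The headers give the score no unit, and it has no direction in common regions. It is used here to rank regions within a list.

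All one-sided regions of the locus were KD regions (100%, 82.4 to 100%). The KD share of one-sided regions was 94.3% in the rest of chromosome 15, inside that interval, and 72.3% on the other autosomes, below it. KD regions made up 38% of its 50 regions (24.7 to 52.8%), against 23.4% of the regions on all assembled chromosomes and 42.9% of the 3789 regions in the rest of chromosome 15. WT regions were 0 of 50, which by the limit of 3 counts allows a share of up to 6%, against 8.4% on all assembled chromosomes and 2.59% in the rest of chromosome 15. The share in the rest of chromosome 15 is below that limit. The higher KD share and lower WT share than on all assembled chromosomes were thus found across chromosome 15 and are not particular to the locus. In bulk libraries, more marked cells and more of the mark per cell cannot be told apart. Readings without a change of the mark, among them any that holds for chromosome 15 as a whole, were not tested.

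Per 100 common regions the locus held 61.3 KD regions (32.7 to 112). The rest of chromosome 15 held 78.8 (73.8 to 84.2), from 1627 KD and 2064 common regions, and its value lies inside the interval of the locus. On the other 18 autosomes pooled the value was 32.4 (31.8 to 33.1), just below the lower bound of the locus, and single autosomes ranged from 23.7 to 40.8 with a median of 32.2. With all KD regions counted, the locus thus stood above the other autosomes. This order turned among KD regions scoring at least 5, with 9.68 (1.89 to 31.0) in the locus and 11.6 on the other autosomes, and among regions of at least 500 bp, with 12.5 (1.39 to 53.2) and 14.1. In both cases the value of the other autosomes lies inside the interval of the locus.

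Windows of the same length showed the spread along the chromosome. Of 57 windows of 600 kb on chromosome 15 outside the locus with at least 10 common regions, 15 (26.3%) held fewer KD regions per 100 common regions than the locus. Their values ran from 7.69 to 200 with a median of 76.2. On the other autosomes 1308 of 1441 such windows (90.8%) lay below the locus, with a median of 27.8 and a highest value of 121. Windows without any WT region were 20 of 57 on chromosome 15 and 234 of 1441 (16.2%) on the other autosomes, so the lack of WT regions was shared by many stretches.

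The KD regions of the locus covered little sequence. They spanned 6278 bp, against 46902 bp of common regions, or 13.4 bp of KD sequence per 100 bp of common sequence. The rest of chromosome 15 had 35.7 and the other autosomes 10.3. By this measure 10 of the 57 chromosome 15 windows (17.5%) lay below the locus, whose value was nearer to that of the other autosomes than to that of its own chromosome.

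**Figure D1:**
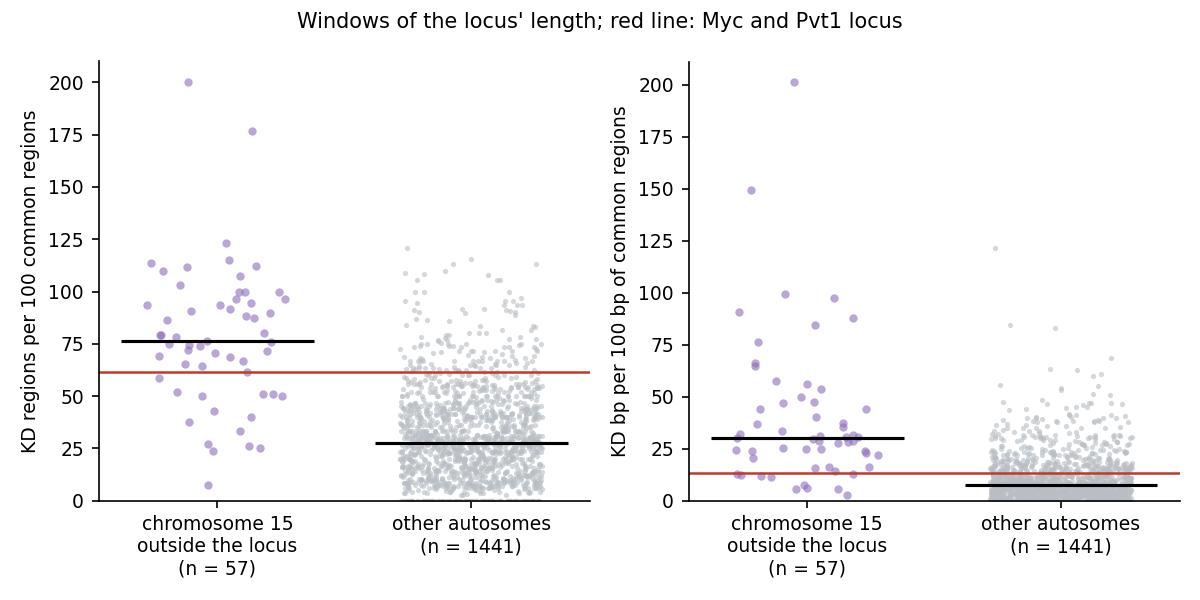
Each point is a window of 600 kb with at least 10 common regions, on chromosome 15 outside the locus or on the other autosomes. The left axis gives KD regions per 100 common regions and the right axis KD base pairs per 100 bp of common regions. Black bars are medians and the red line is the Myc and Pvt1 locus, at 61.3 on the left and 13.4 on the right. The line lies below the chromosome 15 median and above that of the other autosomes in both panels.

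The KD regions of the locus were also short and low in score. Their length ran from 225 to 515 bp with a median of 286 bp. The rest of chromosome 15 had a median of 366 bp and a longest KD region of 7012 bp, and the other autosomes had a median of 339 bp. Their score ran from 3.19 to 9.13 with a median of 3.97, against a median of 4.62 (quartiles 3.89 and 5.72) in the rest of the chromosome and 4.47 on the other autosomes. Of the 19, 16 scored under 5. A score of at least 5 was reached by 3 of 19 (15.8%, 3.38 to 39.6%), against 39.8% (37.4 to 42.3%) in the rest of chromosome 15, which lies just outside the interval of the locus. The 35.7% of the other autosomes lies inside that interval. Of 45 chromosome 15 windows with at least 10 common and 10 KD regions, 1 had a lower median KD score than the locus. That measure was chosen after its values were seen.

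**Figure D2:**
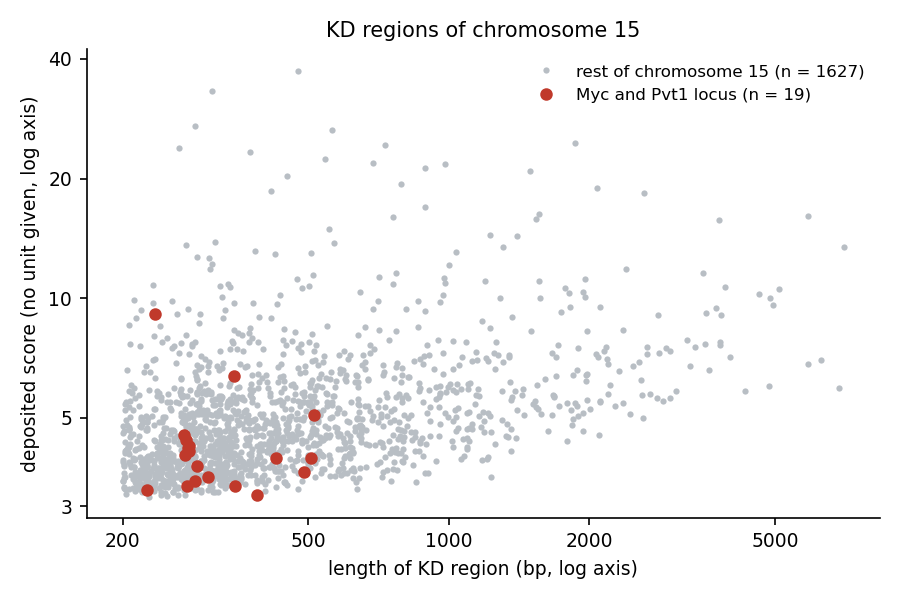
Each point is a KD region of chromosome 15, with its length in bp on the horizontal log axis and its deposited score on the vertical log axis. The 19 regions of the locus (red) stay at or under 515 bp and, except for 3, under a score of 5, while the 1627 others (grey) reach 7012 bp and a score of 37.4.

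The regions fell into 19 domains when neighbours within 1 kb were joined. Of these, 8 held common and KD regions, 10 held common regions alone and 1 was a KD region alone. Among the 18 domains with a common region, 44.4% (21.5 to 69.2%) also held a KD region. In the rest of chromosome 15 it was 58.8% (55.6 to 61.9%) of 961 domains, inside that interval, and on the other autosomes 24.6% (24.1 to 25.2%), also inside it.

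**Figure D3:**
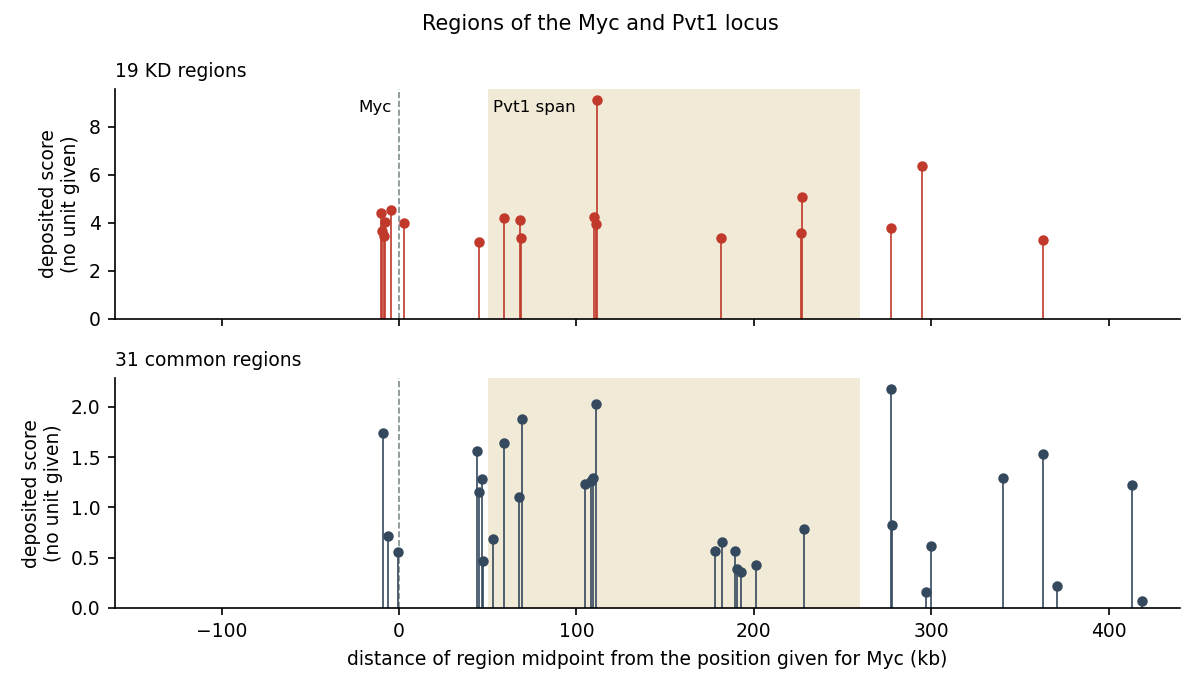
The horizontal axis is the distance in kb of each region's midpoint from the position given for Myc (dashed line), with the Pvt1 span shaded, and the vertical axes are the deposited scores. The upper panel shows the 19 KD regions and the lower one the 31 common regions. No region lies on the side of lower coordinates beyond the Myc domain, and the KD region with the highest score (9.13) lies inside the Pvt1 span.

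Myc lay in a long H3K4me3 domain that was mostly common to both conditions. The domain spanned chr15:61849581-61863114 (13534 bp) and held 3 common regions that covered 12549 bp, the ninth most common sequence of 979 such domains on chromosome 15. The position given for Myc fell in the common region chr15:61855432-61862823. At 7392 bp it ranked 12 by length among the 2095 common regions of the chromosome. Its score of 0.553 was higher than that of 18.2% of them. The mark over the position of Myc was thus listed as common, not as one-sided.

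The Myc domain carried 6 KD regions, 5 of them on the side of lower coordinates, which is upstream of Myc, and 1 at the end towards Pvt1. The outermost upstream one, chr15:61849581-61849853 (273 bp, score 4.39), touched the first common region, chr15:61849854-61852147 (2294 bp, score 1.74). The next pair lay wholly inside that common region, at chr15:61850191-61850680 (490 bp, score 3.65) and chr15:61851206-61851491 (286 bp, score 3.46). So the lists overlap here, and the same bases are given both as common and as unique to the knockdown.

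The remaining upstream KD regions bridged the gaps between the common regions. One, chr15:61852138-61852409 (272 bp, score 4.03), joined the first to the second, chr15:61852306-61855168 (2863 bp, score 0.712). The other, chr15:61855162-61855431 (270 bp, score 4.52), joined the second to the region over Myc and had the highest score of the 6. At the far end chr15:61862688-61863114 (427 bp, score 3.97) extended the domain by overlapping the last 136 bp of the common region. Of the 2018 bp in these 6 KD regions, 1033 bp were also listed as common.

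Domains as long as that of Myc usually held KD regions on this chromosome. In the rest of chromosome 15, 18 of 20 domains with at least 10 kb of common sequence held some, from 0 to 21 per domain with a median of 5.5, against 6 in the Myc domain. On the other autosomes 449 of 683 such domains held some, with a median of 1 and a highest number of 18. KD sequence came to 16.1% of common sequence in the Myc domain, against a median of 21.8% in the 20 domains of chromosome 15 and 2.62% in the 683 others.

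**Figure D4:**
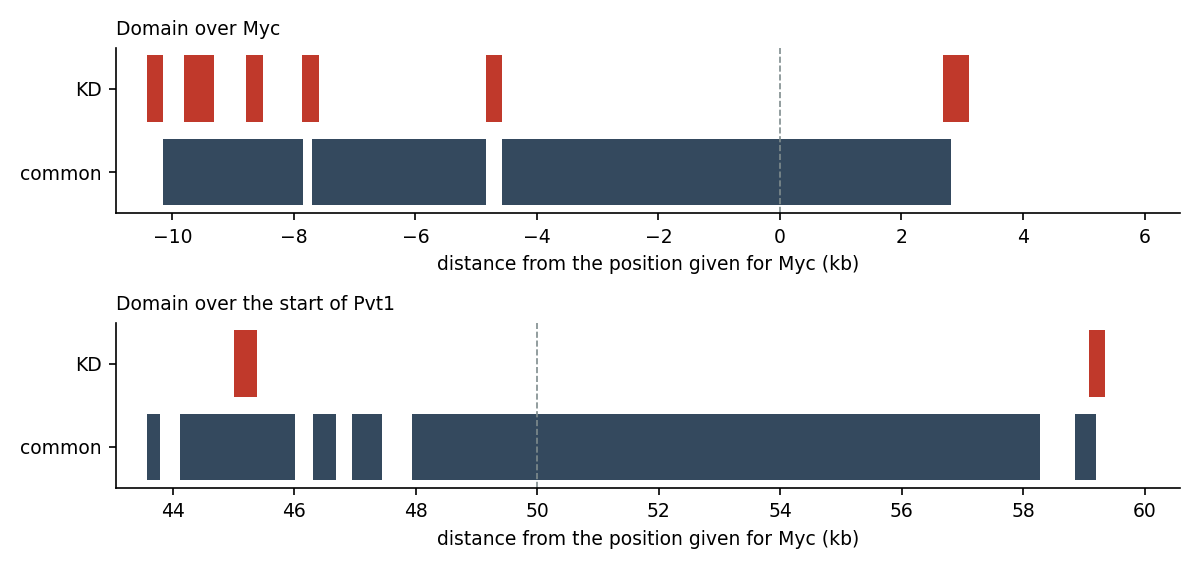
Both panels give the distance in kb from the position given for Myc, to scale, with KD regions in red above common regions in dark blue. In the upper panel (the Myc domain) the dashed line is the position given for Myc, and 5 of 6 KD regions lie upstream of the common region that covers it. In the lower panel (the domain over the start of Pvt1) the dashed line is the start given for Pvt1, and no KD region falls within the long common region around it.

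The start of Pvt1 had the longest common region of the locus and few KD regions. The domain chr15:61903576-61919352 (15777 bp) held 6 common regions covering 13663 bp, the sixth most on chromosome 15. The start given for Pvt1 fell in chr15:61907942-61918276, which at 10335 bp was the second longest common region of the chromosome and ranked 194 among the common regions of all assembled chromosomes. Its score was 0.690. There was no KD region within it.

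Its 2 KD regions lay towards the ends of the domain. One, chr15:61905007-61905393 (387 bp), was wholly inside the common region chr15:61904120-61906018, and its score of 3.19 was the lowest of the locus. The other, chr15:61919077-61919352 (276 bp, score 4.20), overhung the outermost common region, chr15:61918855-61919196 (score 1.64). KD sequence was 4.85% of common sequence, less than in the Myc domain. With 1 domain each, the difference between the neighbours has no replicate check.

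**Figure D5:**
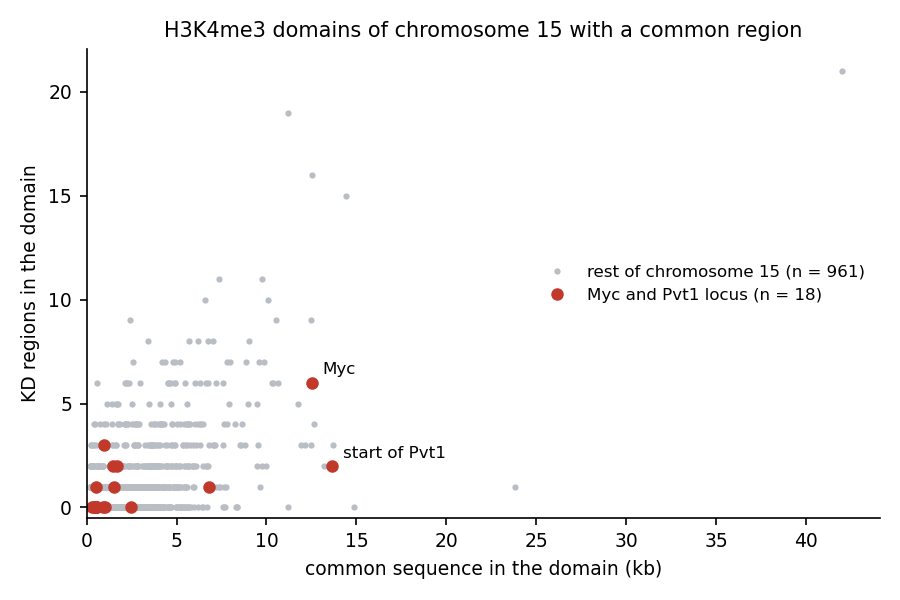
Each point is a chromosome 15 domain that holds a common region, with its common sequence in kb on the horizontal axis and its number of KD regions on the vertical axis. The Myc domain (6 KD regions) and the domain over the start of Pvt1 (2) are labelled. Both sit among other long domains, which reach 21 KD regions.

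The body of Pvt1 held smaller domains. In the domain chr15:61926802-61929276 (2475 bp), 2 KD regions lay at 61928264 to 61928540 (score 4.13) and 61928740 to 61929087 (score 3.37). The first filled part of the gap between the common regions, and the second overlapped the distal common region, which scored 1.88.

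The domain at chr15:61968224-61971811, 108 to 112 kb beyond the position given for Myc, was the only one of the 18 domains with a common region in which KD sequence (1019 bp) exceeded common sequence (991 bp). It had 3 KD regions and 3 short common regions. The distal KD region, chr15:61971577-61971811, was 235 bp long and scored 9.13, the highest of the locus. That score ranked 96 among the 1646 KD regions of chromosome 15, with a gap of 305 bp to the common region beside it. The other KD regions, at 61969684 to 61969961 and 61970505 to 61971010, scored 4.25 and 3.95. The common region that overlapped the second of these, chr15:61970897-61971271 (375 bp), scored 2.03.

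Further along, Pvt1 had a stretch that was nearly all common. The domain chr15:62036801-62044061 (7261 bp) held common regions of 2603 and 4218 bp with scores of 0.570 and 0.655, and 1 KD region of 274 bp (score 3.37) inside the second. The next 3 domains, from 62049021 to 62061524, held 4 common regions that scored 0.361 to 0.568 and no KD region. The last domain within the Pvt1 span, chr15:62086397-62089024, held 2 KD regions on the upstream side of a common region of 1466 bp. The nearer of them, chr15:62087094-62087608, was the longest KD region of the locus (515 bp) and scored 5.08, and the other scored 3.56.

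Beyond Pvt1 most common regions were short and KD regions were few. The longest common region there, chr15:62158551-62161022 (2472 bp, score 0.613), had no KD region in its domain. The 9 domains there held 9 common and 3 KD regions, of which chr15:62154551-62154896 (346 bp) stood alone. It scored 6.37, the second highest of the locus, with a gap of 1935 bp to the closest common region. The other KD regions, chr15:62137047-62137334 (score 3.79) and chr15:62222699-62222923 (score 3.29), overlapped common regions. The common region that met the first, chr15:62137180-62137486, had the highest score of the common regions of the locus, 2.18.

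By stretch, KD regions per 100 common regions came to 200 in the Myc domain (42.7 to 1236). The value was 52.6 in the 9 domains that overlap the Pvt1 span (21.9 to 119) and 33.3 in the 9 domains beyond it (5.80 to 134). The first domain that overlaps the span begins at 61903576, before the start given for Pvt1. Its regions on that side are counted with the Pvt1 domains. The intervals overlap, so no order among the stretches is read from them. By covered length the values were 16.1, 12.5 and 12.1 bp of KD sequence per 100 bp of common sequence, which are close to each other. The number of KD regions in the Myc domain is set against only 3 common regions, which are long.

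KD regions of the locus mostly met common regions, as elsewhere on the chromosome. Of the 19, 14 touched or overlapped one (73.7%, 48.8 to 90.9%), against 68.0% (65.7 to 70.3%) in the rest of chromosome 15 and 53.0% (52.1 to 53.8%) on the other autosomes. Wholly inside a common region lay 5 (26.3%, 9.15 to 51.2%). This compares with 10.9% (9.41 to 12.5%) in the rest of chromosome 15 and 8.11% (7.65 to 8.60%) on the other autosomes. Both values of the rest of chromosome 15 lie inside the intervals of the locus. Of the values of the other autosomes, the 53.0% lies inside and the 8.11% just below. Over 5 kb from any common region there were 0 of 19, which by the limit of 3 counts allows a share of up to 15.8%, against 9.65% in the rest of the chromosome.

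Common regions had a lower median score in the longest class than in the shortest. The 7 common regions of at least 2 kb had a median score of 0.655 (0.553 to 1.74), and the 15 under 500 bp a median of 1.26 (0.0713 to 2.18). In the rest of chromosome 15 the medians of these length classes were 0.748 and 1.51, and on the other autosomes 0.448 and 0.544. Over all lengths the median was 0.823 in the locus, 1.06 in the rest of chromosome 15 and 0.507 on the other autosomes. Of the 57 windows of chromosome 15, 10 had a lower median than the locus, as had 1340 of the 1441 windows of the other autosomes (93.0%).

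The limits of the locus fell in empty sequence. The last region before it, common, was chr15:61419449-61421431 (score 0.288), 428 kb from the first KD region of the Myc domain. The last one inside was the common region chr15:62278219-62278698 (score 0.0713), and the first one after it was the KD region chr15:62328676-62328924 (score 5.49), 50.0 kb away. In the order of the RefSeq table of GRCm38.p6, a different build used for names alone, Myc is the only protein-coding gene between the lncRNA genes D030024E09Rik and Gm41333. The other entries between them are Pvt1 and the pseudogenes Gm18154, Gm18788 and Macroh2a3. No region was assigned to any of these besides the positions given for Myc and Pvt1.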

How the data were processed

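H3K4me3 ChIP-seq of WT and KD cells (24 libraries in 4 groups, by the descriptions in the labels) was deposited as 3 region lists. The submitters' processing notes name the build GRCm39 and the tools MACS2 2.2.6, Bowtie2 2.2.9 and SAMtools 1.6. The sources used here do not give their order or settings, any filter, or whether replicates were pooled. The deposited score is 1 value per region, undefined per the file headers, and no read depth or value per library is given.

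Lists were read as deposited with pandas 2.3.3 under Python 3.11.15, intervals came from scipy 1.17.1 with numpy 2.4.6, and plots from matplotlib 3.10.9. Unplaced contigs entered no comparison. Coordinates are 1-based. A region belonged to the locus if any base overlapped it. Covered length counts each base once. The code for gaps and domains was tested on 1000 built KD regions and recovered 100% of their contacts.

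The members, the positions given for the genes and the alternatives were chosen with earlier results of these data known. All regions of the locus enter the counts, and each KD region is described, but some common regions are not described one by one. Members of the MYC network elsewhere were not analysed here, for want of an annotation of the build. Promoter sequences of Myc and Pvt1 are not printed.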

Additional observations from a re-analysis of the deposited data

How the results depend on the processing

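The alternatives gave 47 values, and 32 of them kept to the interval of the value in the text (counts: to a factor of 1.5). Some of the 32 could not move. Settings that only drop or join regions, or shorten the locus, cannot add a WT region where there was none. The count of 0 WT regions and the KD share in the locus were therefore fixed under them. For the values that moved, given next, the cause was not tested, except that each of these settings counts fewer or other regions. With a score of at least 5, KD regions per 100 common regions fell from 61.3 to 9.68 in the locus (3 KD regions) and from 78.8 to 31.4 in the rest of chromosome 15, where the KD share of one-sided regions was 90.3%. With regions of at least 500 bp the values were 12.5 (2 KD and 16 common regions) and 41.5. Joining regions of 1 kind within 1 kb left 12 KD and 19 common regions in the locus and gave 98.0 in the rest of chromosome 15, with a KD share of 91.7%. Taking 200 kb off each end left 10 KD and 19 common regions, those of the Pvt1 domains, without the Myc domain and the domains beyond Pvt1. Joining touching regions alone gave 34 domains. In KD regions per 100 common regions the locus lay below the rest of chromosome 15 under each setting run. These settings share many of the same regions, so they are not separate checks. The value of the rest lay inside the interval of the locus under each of them except a score of at least 5. There the 31.4 of the rest lay just above that interval. No depletion of the locus is read from the shared order. The locus lay above the other autosomes with all regions counted or joined. For joined regions it held 63.2, and the 41.5 of the other autosomes lay inside its interval. It lay below them with a score of at least 5 (11.6 on the other autosomes) or a length of at least 500 bp (14.1). No WT region was found in the locus with 500 kb added at each end, the setting that could have added some. The place among windows by covered length was added after seeing the data. No paired analysis was possible because no library has values of its own in these lists, and no replicate could be left out either. Depth is unknown, so what it limits cannot be stated.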
